A study of Mus musculus with 9 samples.

Results

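The genes described here make ribosomes: subunits and factors of RNA polymerase I, the core proteins of small nucleolar ribonucleoproteins (snoRNPs), assembly factors of the 40S and 60S ribosomal subunits, and abundant nucleolar proteins. They are a list of 40 genes grouped by function, drawn up with earlier results of these data known, and the rule for membership uses no measured value. Of these, 39 were rows of the table of 23951 gene symbols, and Noc2l was not analysed here. The cells were mast cells grown from bone marrow of wild-type C57BL/6 mice, kept for 4 to 6 weeks with IL-3 and SCF at 10 ng/ml each, and over 95% of them were positive for CD117 and FcεRI per the labels. The antigen group (3 libraries) received 0.5 µg/ml IgE for 18 h and then the antigen DNP-BSA at 50 ng/ml for 2 h. The IgE group (3 libraries) received the same IgE for 18 h with no antigen, and the untreated group (3 libraries) received neither. Antigen binds the IgE held on FcεRI and cross-links the receptor, which activates the mast cell.

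Ribosome production begins in the nucleolus, where RNA polymerase I copies the ribosomal DNA into a long precursor RNA. Box C/D snoRNPs guide ribose methylation of that RNA and box H/ACA snoRNPs guide its pseudouridylation, while the small subunit processome and the 60S assembly factors cut, fold and package it. The pathway is a known target of growth signals and of the transcription factor Myc, and it takes up a large share of the resources of a growing cell.

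The values are FPKM, which scale reads to transcript length and to the mapped reads of a library, so levels can be compared between genes. Depth, estimated from the steps between low values, came to 20.9 to 28.5 M reads with antigen, 32.2 to 39.3 M with IgE and 29.8 to 33.3 M untreated. If each transcript were 2 kb long, counting alone would give the shallowest library of a member a coefficient of variation of 0.748% for Npm1, the best counted, and 12.7% for Polr1e, the least. Fcer1a, a chain of the IgE receptor, stood at 4660 to 6093 FPKM and Kit at 395 to 497 FPKM over the 9 libraries, while Cpa3 and Cma1, which also mark mast cells, were listed at 0 in all 9. The summed FPKM of 7 macrophage markers was 20.3 to 22.4 in antigen libraries, 25.1 to 26.7 in IgE libraries and 27.0 to 30.0 in untreated libraries. The sum of 5 eosinophil markers was 4.26 to 5.39 FPKM with antigen, 9.44 to 11.2 FPKM with IgE and 11.6 to 13.1 FPKM untreated. That of 4 basophil markers was 554 to 574 FPKM with antigen, 424 to 478 FPKM with IgE and 508 to 546 FPKM untreated, most of it from Cd200r3. That of 5 megakaryocyte markers was 392 to 404 FPKM with antigen, 361 to 375 FPKM with IgE and 435 to 440 FPKM untreated, nearly all from Itga2b, with Ppbp listed at 0 in all 9. The erythroid sum was 5.34 to 5.93 FPKM with antigen, 3.90 to 4.21 FPKM with IgE and 3.82 to 4.62 FPKM untreated, and the sums for neutrophils, B cells, dendritic cells, T and NK cells and stroma stayed under 2.7 FPKM in each library. The part of these markers in the members' results was not tested. Antigen replicate 3 lists 0 for all 437 X-linked and all 4 Y-linked genes that the other 8 libraries hold above 0. Those zeros were treated as missing, so X-linked Dkc1 has 2 antigen libraries. The labels do not tie the libraries of a group to separate cultures or animals, and the spread that the tests use may therefore be technical.

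With antigen the set split. Relative to IgE alone, transcripts of the RNA polymerase I subunit Polr1c, the initiation factor Ubtf and the 40S factors Heatr1 and Rrp12 rose by 1.60- to 2.41-fold, while the RNA polymerase I subunit Polr1e fell to 0.283 of its IgE level and Nop2, Dkc1 and Nop56 fell to between 0.748 and 0.788 of it. With limma on log2(FPKM + 1), at an adjusted p under 0.05, 18 of the 39 members were called higher and 9 lower, against 37.6% and 36.2% of the 10890 genes tested. Under quantile normalization 11 members were called higher and 14 lower, with a median log2 change of 0.0023. That scaling called 3331 of the 10890 genes tested higher and 4656 lower, with a median of −0.077 over every gene tested. Of the calls first given, 16 of the 18 and all 9 had antigen and IgE libraries that did not overlap, against 36.6% and 35.3% of the genes tested. The median log2 change of the members was 0.11, beside 0.01 for every gene tested, and the members ranged from −1.35 for Polr1e to 1.11 for Rrp12. The share of members called higher lay near or a little above that of all genes, and the share called lower lay below it, a difference that was not tested.

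With IgE alone no member was called lower. Relative to untreated cells, 21 members were called higher and 0 lower by limma, against 15.9% and 14.2% of the genes tested, and 18 were not called. At an unadjusted p under 0.05 the counts were 25 and 0, against 21.2% and 20.7% of the genes tested. The 19 called members whose IgE and untreated libraries did not overlap compare with 15.5% of the genes tested. The median log2 change was 0.15 for the members and −0.01 for every gene tested, and no member changed by 0.5 or more. The median absolute log2 change of the members was 0.15 here and 0.20 for antigen against IgE, beside 0.12 and 0.32 for every gene tested. The lowest changes were those of Ncl (−0.06), Wdr43 (−0.0090) and Nop14 (−0.0079), none of which was called. The leading members were Gar1, Fbl, Nop56 and Nhp2, which are core proteins of the snoRNPs. The count was 10 of 39 without untreated replicate 1 and 10 without untreated replicate 3, and it was 14 without IgE replicate 1 and 12 without IgE replicate 2. Fbl, Nop56, Nop10, Wdr75, Utp20, Rrp9, Bop1, Wdr12 and Nolc1 kept their call in all 21 alternatives run. Markers of proliferation moved in the same libraries: the summed FPKM of 10 such genes, among them Mki67, Top2a and Mcm2, was 623 to 658 in IgE libraries and 423 to 446 in untreated libraries. All 10 were called higher with IgE than in untreated cells, and 9 of the 10 were called lower with antigen, where the sum was 398 to 409 FPKM, than with IgE alone. Their part in the members' results was not tested.

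Set against untreated cells, antigen-treated cells had 25 members called higher and 5 lower, where 38.7% and 35.6% of all genes tested were called. The count called lower was 2 without untreated replicate 1 or 2 or antigen replicate 1 or 2, and 3 without antigen replicate 3 or without the filter on low values. In each of these 30 members the antigen and untreated libraries did not overlap, which held for 38.3% of all genes tested in the higher and 35.1% in the lower direction. The median log2 change was 0.27 for the members and 0.02 for every gene tested. The 38 members other than Dkc1 summed to 1395, 1333 and 1318 FPKM in the antigen libraries, 1240, 1210 and 1142 FPKM in the IgE libraries, and 1073, 1112 and 1069 FPKM in the untreated libraries. As a share of the FPKM summed over the 23382 genes with a value in every library, that was 0.238% to 0.2499% with antigen, 0.237% to 0.253% with IgE and 0.216% to 0.235% untreated, so the shares of antigen and IgE libraries overlapped. Without Npm1, the most abundant member, the sums were 897 to 925 FPKM with antigen, 801 to 829 FPKM with IgE and 707 to 752 FPKM untreated. The 3 comparisons share libraries, IgE between the antigen step and the IgE step and the antigen or untreated libraries otherwise, so their calls are not independent of each other. The heat map of members by library shows these levels gene by gene.

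**Figure D1:**
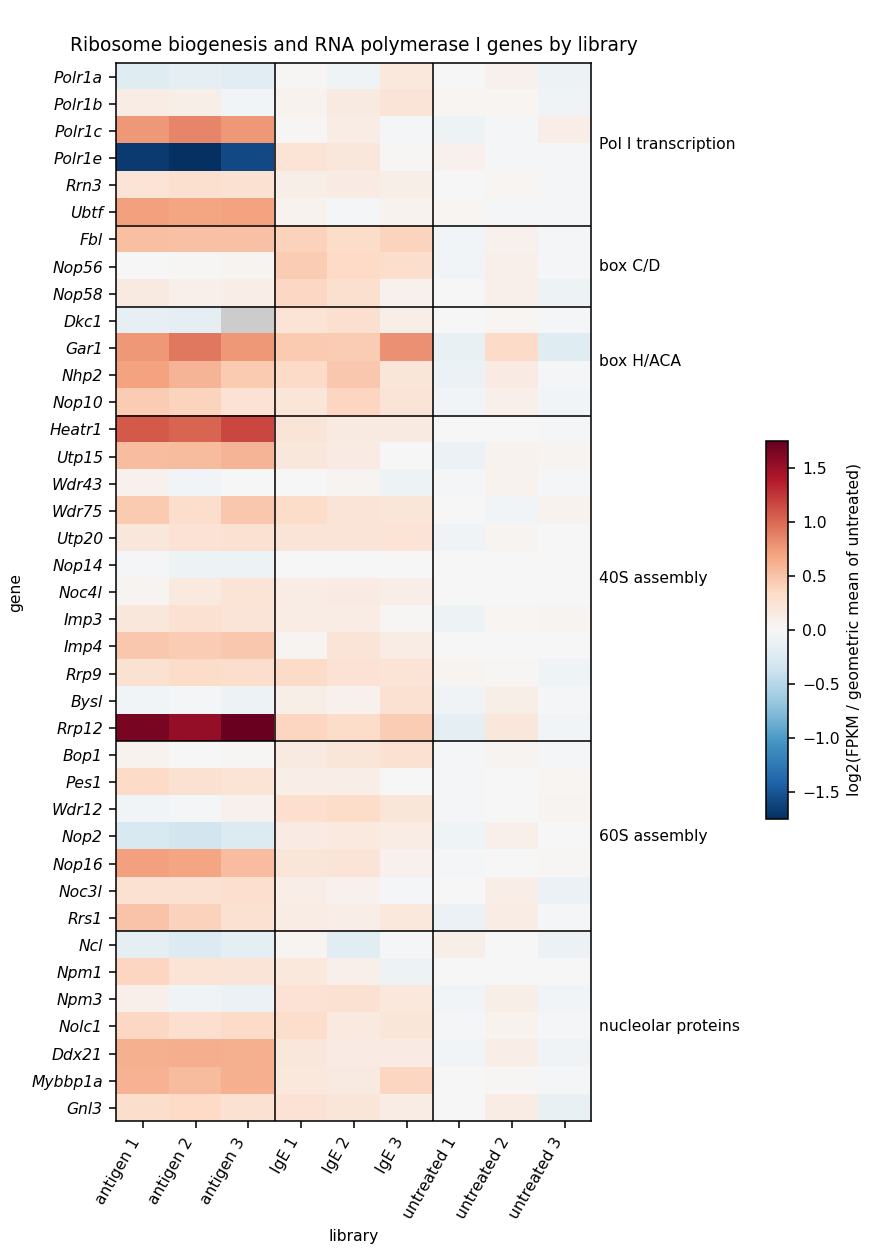
Heat map of the 39 members (rows, grouped by role) in the 9 libraries (columns). Colour is the log2 ratio of FPKM to the geometric mean of the 3 untreated libraries, with red higher and blue lower, and the grey cell is the missing value of Dkc1; Rrp12 and Heatr1 are the reddest rows and Polr1e the bluest in the antigen columns.

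Within RNA polymerase I transcription the members moved apart under antigen. Of 6 members, 3 were called higher (Polr1c, Ubtf and Rrn3) and 2 lower (Polr1e and Polr1a) relative to IgE. Relative to untreated cells the same counts, 3 higher and 2 lower, were found for antigen, and with IgE alone 1 was called higher (Rrn3) and 0 lower, also at an unadjusted p under 0.05. Of all genes tested, 37.6% were called higher and 36.2% lower for antigen against IgE, and 38.7% and 35.6% for antigen against untreated. For IgE alone these shares were 15.9% and 14.2%. Polr1a, the largest and catalytic subunit, had 6.17, 6.32 and 6.28 FPKM in the antigen libraries, 7.21, 6.77 and 8.08 FPKM in the IgE libraries and 7.19, 7.51 and 6.72 FPKM in the untreated libraries. Its antigen libraries lay below all 6 others, by a log2 change of −0.20 against IgE (SE 0.063, adjusted p = 0.0149) and −0.17 against untreated (adjusted p = 0.0352). The call against IgE was lost without antigen replicate 3 and IgE replicate 3 together (adjusted p = 0.0698). The call against untreated was lost on leaving out any single antigen library, untreated replicate 1 or untreated replicate 2 (adjusted p from 0.0657 to 0.1197), without the filter on low values (0.0589) and under quantile normalization (0.0822). Polr1b, which forms the active centre together with Polr1a, had 5.79, 5.695 and 5.15 FPKM with antigen, 5.52, 5.92 and 6.21 FPKM with IgE and 5.42, 5.42 and 5.10 FPKM untreated. Its antigen libraries overlapped those of the other groups. It was not called between antigen and IgE, where the 95% interval of the log2 change ran from −0.20 to 0.06. Its IgE libraries lay above the untreated ones, a log2 change of 0.12 that was not called (adjusted p = 0.136).

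Polr1c, a subunit that RNA polymerases I and III share, went the other way from Polr1a. It had 30.1, 32.2 and 29.9 FPKM in the antigen libraries, 17.9, 19.4 and 17.4 FPKM in the IgE libraries and 16.7, 17.4 and 19.2 FPKM in the untreated libraries. The antigen libraries lay above the other 6, with a mean of 30.7 ± 1.24 FPKM against 18.3 ± 1.06 FPKM with IgE (SD, n = 3 each), a log2 change of 0.72 (SE 0.060, adjusted p = 1.37e-06). IgE and untreated libraries overlapped, with an interval from −0.10 to 0.17 for the log2 change between them. Polr1e is known as the PAF53 subunit and pairs with Cd3eap in a heterodimer that, in yeast, acts in initiation and elongation. It had 1.57, 1.49 and 1.68 FPKM in the antigen libraries, 5.88, 5.76 and 5.09 FPKM in the IgE libraries and 5.26, 4.87 and 4.90 FPKM in the untreated libraries. Every antigen value was below every value of the other 6 libraries. The mean was 1.58 ± 0.097 FPKM with antigen and 5.58 ± 0.425 FPKM with IgE, a log2 change of −1.35 (SE 0.062, adjusted p = 1.45e-08), larger in size than that of 94.6% of the genes tested. Against untreated cells the log2 change was −1.22 (adjusted p = 2.87e-08). Polr1e ranked lowest of the 39 members in antigen-treated cells.

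The initiation factors rose. Ubtf, which binds active ribosomal DNA, had 73.0, 71.1 and 71.8 FPKM with antigen, 46.0, 43.1 and 46.05 FPKM with IgE and 45.4, 43.75 and 43.4 FPKM untreated. The antigen libraries stood well clear of the other 6, which overlapped among themselves, and the log2 change against IgE was 0.66 (SE 0.039, adjusted p = 8.77e-08). Rrn3, also known as TIF-IA, joins the polymerase to the promoter and had 22.65, 23.3 and 23.0 FPKM with antigen, 20.55, 21.2 and 20.6 FPKM with IgE and 19.0, 19.6 and 18.8 FPKM untreated. These 3 sets did not overlap, and the log2 change was 0.14 between antigen and IgE (adjusted p = 0.00488) and 0.11 between IgE and untreated cells (adjusted p = 0.0374). The antigen step of Rrn3 was not called under quantile normalization (adjusted p = 0.339). Its IgE step was not called on leaving out IgE replicate 1 or 2, untreated replicate 1 or 3, or any antigen library, with adjusted p from 0.0517 to 0.126, nor under trimmed mean scaling (0.0504), quantile normalization (0.0508), no intensity trend (0.0506) or a fit of these groups alone (0.0847). The ratio of Polr1e to Polr1a in FPKM was 0.235 to 0.267 with antigen, 0.631 to 0.852 with IgE and 0.648 to 0.732 untreated. The ratio of Polr1c to Polr1a was 4.76 to 5.09 with antigen, 2.15 to 2.87 with IgE and 2.31 to 2.86 untreated. The ratio of Polr1b to Polr1a was 0.819 to 0.939 with antigen, 0.766 to 0.875 with IgE and 0.722 to 0.758 untreated, with antigen and IgE libraries overlapping.

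**Figure D2:**
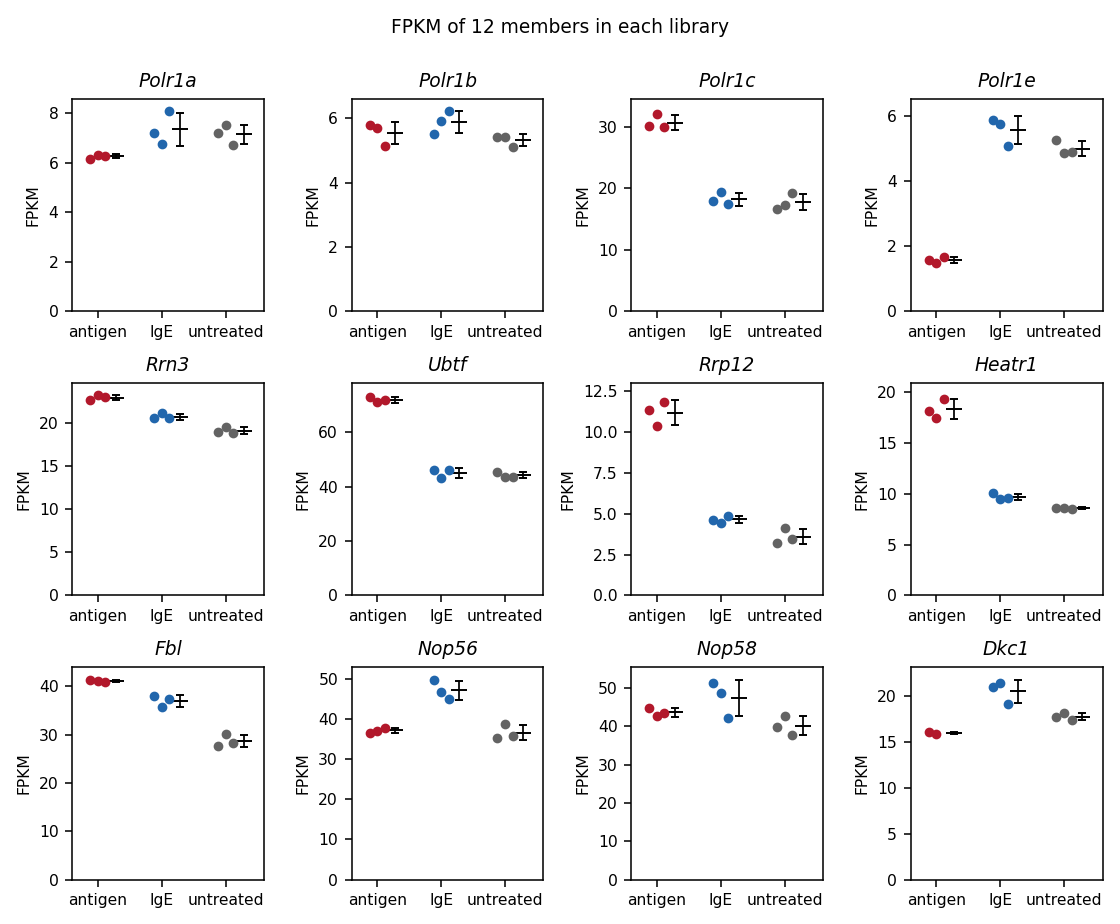
FPKM (vertical axes, from 0) of 12 members in the antigen (red), IgE (blue) and untreated (grey) libraries, each point 1 library, with the mean and SD beside it (n = 3, and n = 2 for Dkc1 with antigen). Polr1c, Ubtf, Rrp12 and Heatr1 sit highest with antigen, Polr1e lowest at 1.58 FPKM on average, and Nop56 and Dkc1 highest with IgE.

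The promoters of 4 of these movers are shown because they share a short motif while their transcripts went different ways. Windows from 250 bases before to 50 bases after the gene start were taken from RefSeq (GRCm38.p6), where 34 of the 39 members matched by symbol. The windows are chr17:46247996-46248295 on the minus strand for Polr1c, chr4:45018359-45018658 on the plus strand for Polr1e, chr16:13780449-13780748 on the plus strand for Rrn3 and chr13:12395125-12395424 on the plus strand for Heatr1. Capitals mark the octamer ACTTCCGG, the letters of an ETS-type motif, on either strand, and in Rrn3 also the E-box CACGTG.
Polr1c promoter: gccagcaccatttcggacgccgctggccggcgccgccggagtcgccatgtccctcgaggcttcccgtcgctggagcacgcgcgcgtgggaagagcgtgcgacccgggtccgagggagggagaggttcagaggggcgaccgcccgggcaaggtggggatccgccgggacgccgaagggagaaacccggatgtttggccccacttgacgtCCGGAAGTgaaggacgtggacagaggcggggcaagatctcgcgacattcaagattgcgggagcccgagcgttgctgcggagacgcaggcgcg
Polr1e promoter: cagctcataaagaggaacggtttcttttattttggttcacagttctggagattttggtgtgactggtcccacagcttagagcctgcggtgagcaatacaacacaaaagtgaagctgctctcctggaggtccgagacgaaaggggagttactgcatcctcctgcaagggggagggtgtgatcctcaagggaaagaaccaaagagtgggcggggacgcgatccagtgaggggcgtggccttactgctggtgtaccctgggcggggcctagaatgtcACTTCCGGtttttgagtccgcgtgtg
Rrn3 promoter: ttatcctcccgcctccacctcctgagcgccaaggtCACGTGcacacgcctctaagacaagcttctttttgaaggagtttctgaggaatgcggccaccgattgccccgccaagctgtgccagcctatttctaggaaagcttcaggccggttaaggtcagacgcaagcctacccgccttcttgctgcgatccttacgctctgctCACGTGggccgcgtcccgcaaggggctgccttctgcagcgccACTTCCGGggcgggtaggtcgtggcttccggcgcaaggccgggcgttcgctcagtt
Heatr1 promoter: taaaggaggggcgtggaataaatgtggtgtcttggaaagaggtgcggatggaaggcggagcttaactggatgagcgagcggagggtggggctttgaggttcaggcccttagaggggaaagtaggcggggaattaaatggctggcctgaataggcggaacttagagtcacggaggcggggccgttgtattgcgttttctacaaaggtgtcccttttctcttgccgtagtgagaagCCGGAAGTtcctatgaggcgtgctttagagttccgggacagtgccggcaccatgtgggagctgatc
The octamer begins 42 bases before the start in Polr1c, 6 before it in Rrn3, 16 before it in Heatr1 and 25 after it in Polr1e. On either strand it was found in 6 members (Gar1, Heatr1, Nhp2, Polr1c, Polr1e and Rrn3), which is 17.6% of the 34. It was found in 10.1% of the genes tested that have a window and in 4.31% of all 27025 genes with a window. Polr1c and Polr1e both hold it and moved in opposite directions with antigen. A match is a description of letters and not of binding.

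The E-box CACGTG, which reads the same on each strand and is a known binding site of Myc, was present in 7 of the 34 members, or 20.6%, against 12.1% of genes tested and 8.09% of all genes with a window. The 8 sites are printed with up to 10 bases on each side because Myc is a known activator of the pathway, with the E-box in capitals.
Imp4: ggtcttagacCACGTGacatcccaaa
Nop2: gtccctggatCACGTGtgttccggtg
Utp20: gcactaactaCACGTGaggaaaa
Pes1: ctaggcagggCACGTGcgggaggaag
Mybbp1a: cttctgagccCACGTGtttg
Rrn3, site farther from the start: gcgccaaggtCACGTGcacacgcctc
Rrn3, site nearer the start: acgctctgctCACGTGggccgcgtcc
Wdr43: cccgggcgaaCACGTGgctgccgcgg
The sites lie at chr1:34439698-34439723 (plus strand) for Imp4, chr6:125131813-125131838 (plus) for Nop2, chr10:88826765-88826787 (minus) for Utp20, chr11:3963967-3963992 (plus) for Pes1 and chr11:72441357-72441376 (plus) for Mybbp1a. Those of Rrn3 lie at chr16:13780474-13780499 and chr16:13780641-13780666 (plus), and that of Wdr43 at chr17:71616222-71616247 (plus). Of the 7 members that hold the site, 4 were called higher and 1 lower (Nop2) with antigen relative to IgE. Utp20 and Wdr43 hold it and were not called. Of the 27 members with a window but no such site, 10 were called higher and 7 lower. Beside these counts, 37.6% of all genes tested were called higher and 36.2% lower. The median log2 change was 0.14 for members with the site and 0.09 for those without it, a difference that was not tested. The CCAAT box, searched as CCAAT on either strand, was in 12 of the 34, or 35.3%, and in 43.4% of genes tested.

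Myc itself had 18.9, 19.3 and 19.7 FPKM in the antigen libraries, 11.4, 11.8 and 16.5 FPKM in the IgE libraries and 9.76, 10.3 and 9.80 FPKM in the untreated libraries. It was called higher with antigen than with IgE and than untreated, and higher with IgE than untreated (log2 change 0.36, adjusted p = 0.0306), where IgE replicate 3 stood above the other IgE libraries. That last call was lost on leaving out any untreated library, with adjusted p up to 0.0869. Of 10 Myc and Mad factors tested, Myc included, 3 were called higher and 4 lower in the antigen step (median log2 change −0.11). Max rose by 0.48 and Mxi1 by 0.72 (adjusted p = 1.996e-06 and 2.459e-06). With IgE alone 2 were called higher and 3 lower. All genes tested gave 37.6% and 36.2% in the antigen step, and 15.9% and 14.2% with IgE alone.

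In the core of the box C/D snoRNP, the ratio of Nop56 to Fbl transcripts was lower with antigen than in the other groups. With IgE alone the 3 members of this core were all called higher than in untreated cells. With antigen 1 was called higher (Fbl) and 1 lower (Nop56) than with IgE. Among all genes tested, 15.9% were called higher with IgE alone, and 37.6% higher and 36.2% lower in the antigen step. Fbl, the methyltransferase, had 41.2, 41.0 and 40.9 FPKM with antigen, 38.0, 35.7 and 37.5 FPKM with IgE and 27.7, 30.1 and 28.3 FPKM untreated. The 3 groups did not overlap. The log2 change was 0.36 for IgE against untreated (adjusted p = 0.000237) and 0.14 for antigen against IgE (adjusted p = 0.00908), and the smaller one was −0.0078 under quantile normalization (adjusted p = 0.878). Under median centring the antigen step of Fbl was 0.0997 and was not called (adjusted p = 0.0526). Nop56, a scaffold protein of the particle, had 36.6, 37.0 and 37.8 FPKM with antigen, 49.7, 46.6 and 45.1 FPKM with IgE and 35.3, 38.7 and 35.7 FPKM untreated. The IgE libraries stood above the other 6, which overlapped. Nop56 rose with IgE by 0.36 (adjusted p = 0.000537) and was lower with antigen than with IgE by a log2 change of −0.33 (adjusted p = 9.92e-05). The change between antigen and untreated cells was 0.02, with an interval from −0.08 to 0.13. Nop58, the partner of Nop56, had 44.9, 42.7 and 43.4 FPKM with antigen, 51.4, 48.6 and 42.1 FPKM with IgE and 39.96, 42.8 and 37.8 FPKM untreated. It was called only between IgE and untreated cells (log2 change 0.23, adjusted p = 0.0324), where the libraries overlapped, and that call was lost without IgE replicate 1 or 2 or without untreated replicate 1 or 3, with adjusted p from 0.0858 to 0.119. The ratio of Nop56 to Fbl was 0.887 to 0.925 with antigen, 1.20 to 1.31 with IgE and 1.26 to 1.29 untreated, and Nop56 was the less abundant of the pair in the antigen libraries only. Nop56 has 4 pseudogene copies and Fbl 2 in GENCODE M21, and how shared reads were counted is not given in the sources used here.

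In the box H/ACA core, transcripts of the enzyme Dkc1 were lower with antigen than with IgE, and those of Nhp2, Gar1 and Nop10 were not. The 4 members were called higher with IgE than untreated, and with antigen 1 was called higher (Nhp2) and 1 lower (Dkc1) than with IgE. The shares of all genes tested were 15.9% higher with IgE alone, and 37.6% higher and 36.2% lower in the antigen step. Dkc1, the pseudouridine synthase dyskerin, had 16.1 and 15.9 FPKM in the 2 antigen libraries with a value, 21.0, 21.5 and 19.1 FPKM with IgE and 17.7, 18.1 and 17.4 FPKM untreated. The IgE libraries were the highest and the antigen libraries the lowest of these 8. The log2 change was −0.34 for antigen against IgE (SE 0.055, adjusted p = 0.000357), 0.20 for IgE against untreated (adjusted p = 0.0157) and −0.14 for antigen against untreated (adjusted p = 0.0401). The last call was lost on leaving out any untreated library or antigen replicate 1 or 2, with adjusted p from 0.0577 to 0.139. The IgE call of Dkc1 was lost without IgE replicate 1 or 2 or untreated replicate 1 or 3, with adjusted p from 0.0502 to 0.0601. With the deposited 0 of antigen replicate 3 kept, none of its 3 changes was called (adjusted p from 0.143 to 0.914).

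Nhp2, an RNA-binding core protein, had 65.9, 61.2 and 55.7 FPKM with antigen, 51.1, 56.3 and 46.95 FPKM with IgE and 37.7, 44.6 and 39.5 FPKM untreated. The IgE libraries lay above the untreated ones (log2 change 0.33, adjusted p = 0.0137), while the antigen and IgE libraries overlapped (log2 change 0.24, adjusted p = 0.0237). The antigen step was not called on leaving out antigen replicate 1 or 2 or IgE replicate 1 or 3 (adjusted p from 0.0532 to 0.0957). Nor was it called under median centring (0.0655), without the filter on low values (0.0508) or under quantile normalization, where the log2 change was 0.041 (adjusted p = 0.660). The IgE step was not called without untreated replicate 1 (0.0565) or IgE replicate 2 (0.0520). Gar1, the core protein that binds the synthase, had 7.96, 8.94 and 8.03 FPKM with antigen, 6.49, 6.44 and 8.22 FPKM with IgE and 4.33, 5.95 and 4.10 FPKM untreated. It was variable, with IgE replicate 3 at the level of the antigen libraries and untreated replicate 2 above the other untreated ones. Its log2 change was 0.48 for IgE against untreated (adjusted p = 0.0134) and 0.70 for antigen against untreated (adjusted p = 0.000356). The IgE call of Gar1 was lost without untreated replicate 1 (adjusted p = 0.0536) or 3 (adjusted p = 0.0538), and the antigen step was not called, with an interval from −0.05 to 0.48. Nop10, the smallest core protein, averaged 85.3 FPKM with antigen, 80.1 FPKM with IgE and 66.2 FPKM untreated and was called for IgE (log2 change 0.27). The ratio of Dkc1 to Nhp2 was 0.244 and 0.260 with antigen, 0.381 to 0.411 with IgE and 0.407 to 0.470 untreated.

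The 12 members of the small subunit processome and 40S assembly held the largest rises. With antigen 6 were called higher and 1 lower than with IgE, with IgE alone 5 were called higher and 0 lower than untreated (8 and 0 at an unadjusted p under 0.05), and antigen against untreated gave 9 higher and 0 lower, also at an unadjusted p under 0.05. In the same order, 37.6%, 15.9% and 38.7% of all genes tested were called higher, and 36.2%, 14.2% and 35.6% lower. Rrp12, a HEAT-repeat protein that takes part in export and maturation of the pre-40S particle, had 11.3, 10.3 and 11.8 FPKM with antigen, 4.63, 4.45 and 4.85 FPKM with IgE and 3.205, 4.11 and 3.46 FPKM untreated. Its groups did not overlap. The antigen mean was 2.41-fold the IgE mean (log2 change 1.11, SE 0.077, adjusted p = 3.4e-07) and 3.11-fold the untreated mean (log2 change 1.41, adjusted p = 4.76e-08). The log2 change between IgE and untreated cells was 0.30 (adjusted p = 0.0147), and that call was lost without untreated replicate 1 (adjusted p = 0.0586) or 3 (adjusted p = 0.0530). Heatr1, the homologue of yeast Utp10 and a factor of pre-ribosomal RNA transcription and processing, had 18.1, 17.4 and 19.3 FPKM with antigen, 10.0, 9.51 and 9.55 FPKM with IgE and 8.60, 8.61 and 8.48 FPKM untreated. The antigen libraries lay far above the IgE ones, which lay above the untreated ones. The antigen mean was 1.89-fold the IgE mean (log2 change 0.85, SE 0.047, adjusted p = 5.45e-08). Its IgE step was 0.16 (adjusted p = 0.0262), and that call was lost on leaving out any untreated library or IgE replicate 1 or 2, with adjusted p from 0.0509 to 0.0849.

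The other early 40S factors moved by less than Heatr1. Utp15, a WD-repeat member of the same subcomplex, averaged 11.1 ± 0.244 FPKM with antigen and 8.17 ± 0.528 FPKM with IgE (SD, n = 3 each), a log2 change of 0.40 (adjusted p = 9.4e-05). Wdr75, also of that subcomplex, rose by 0.23 with IgE (adjusted p = 0.0114) and by 0.15 with antigen over IgE (adjusted p = 0.0291), where libraries overlapped and where leaving out antigen replicate 1 or 3 or IgE replicate 2 or 3 ended the call (adjusted p from 0.0675 to 0.105), as did median centring (0.107) and quantile normalization (0.165). Wdr43, of the same subcomplex, averaged 23.0 FPKM with antigen, 22.7 FPKM with IgE and 22.8 FPKM untreated, with an interval of −0.09 to 0.13 for the antigen step. Imp3 and Imp4 bind the U3 snoRNP with Mphosph10. Imp4 averaged 26.5 ± 0.275 FPKM with antigen and 21.1 ± 1.37 FPKM with IgE (SD, n = 3 each), a log2 change of 0.32 (adjusted p = 0.000108). Imp3 rose by 0.13 (adjusted p = 0.0242), which became −0.019 under quantile normalization (adjusted p = 0.683). Its rise was not called under median centring (0.105) or without IgE replicate 3 or antigen replicate 2 or 3 (adjusted p from 0.0571 to 0.0836). Nor was it called without antigen replicate 3 and IgE replicate 3 together (0.110). Rrp9, a U3 protein, and Utp20, a large scaffold, rose with IgE by 0.26 and 0.20 (adjusted p = 0.00223 and 0.00911) and were not called between antigen and IgE. Nop14 averaged 27.0 FPKM with antigen, 28.1 FPKM with IgE and 28.3 FPKM untreated and was not called in any comparison. Noc4l, its partner in yeast, was called between antigen and untreated cells alone (log2 change 0.14, adjusted p = 0.0238), and that call was lost on leaving out any untreated library or antigen replicate 2 or 3 (adjusted p from 0.0536 to 0.102).

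Bysl, the homologue of yeast Enp1, was the 1 member of this group called lower. It averaged 10.1 ± 0.189 FPKM with antigen and 11.7 ± 0.814 FPKM with IgE (SD, n = 3 each), a log2 change of −0.19 (adjusted p = 0.0131), which was not called without antigen replicate 3 and IgE replicate 3 together (adjusted p = 0.0876). Of the exon bases of Bysl, 9.37% lie under Ccnd3 on the opposite strand, and Ccnd3 had 47.7, 50.3 and 54.6 FPKM with antigen, 65.4, 66.8 and 72.45 FPKM with IgE and 59.8, 59.4 and 58.7 FPKM untreated. Whether counting used strand is not given in the sources used here, and the part of Ccnd3 reads in the Bysl values was not tested.

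Among the 60S factors each of the 7 members was called in the antigen step, 4 higher (Nop16, Rrs1, Noc3l and Pes1) and 3 lower (Nop2, Wdr12 and Bop1). With IgE alone 3 were called higher (Wdr12, Bop1 and Nop2) and 0 lower, and at an unadjusted p under 0.05 the counts were 4 and 0. Of all genes tested, 37.6% were called higher and 36.2% lower in the antigen step, and 15.9% and 14.2% with IgE alone. Nop2, a methyltransferase for the large ribosomal RNA and a classical proliferation antigen, had 13.25, 12.8 and 13.5 FPKM with antigen, 17.6, 17.9 and 17.4 FPKM with IgE and 15.1, 16.9 and 15.8 FPKM untreated. The antigen libraries lay below the other 6. The log2 change was −0.39 against IgE (SE 0.047, adjusted p = 2.41e-05) and −0.26 against untreated cells (adjusted p = 0.000555). The rise with IgE was 0.14 (adjusted p = 0.0490) and was called in 5 of the 21 alternatives. It was lost without IgE replicate 1 or 2, untreated replicate 1 or 3, or any antigen library, with adjusted p from 0.0627 to 0.178.

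Pes1, Bop1 and Wdr12 form the PeBoW complex, which is needed for 60S maturation and cell proliferation, and they did not move together. Pes1 averaged 29.2 ± 0.956 FPKM with antigen, 25.4 ± 1.099 FPKM with IgE and 24.1 ± 0.493 FPKM untreated (SD, n = 3 each), with a log2 change of 0.19 for antigen over IgE (adjusted p = 0.00219), not called under quantile normalization (adjusted p = 0.161). Bop1 averaged 16.4 ± 0.443 FPKM with antigen, 18.7 ± 0.656 FPKM with IgE and 16.2 ± 0.496 FPKM untreated (SD, n = 3 each), and its antigen step was −0.18 (adjusted p = 0.00331). Wdr12 averaged 7.91 ± 0.367 FPKM with antigen, 9.55 ± 0.380 FPKM with IgE and 7.90 ± 0.209 FPKM untreated (SD, n = 3 each), and its antigen step was −0.24 (adjusted p = 0.00107). Bop1 and Wdr12 were highest in the IgE libraries, where they were called above untreated by 0.20 and 0.25 (adjusted p = 0.00683 and 0.00464). The ratio of Wdr12 to Pes1 was 0.252 to 0.293 with antigen, 0.372 to 0.378 with IgE and 0.326 to 0.331 untreated. The ratio of Bop1 to Pes1 was 0.553 to 0.575 with antigen, 0.694 to 0.802 with IgE and 0.642 to 0.697 untreated. Nop16 showed the largest rise of the 60S group, with a mean of 14.8 ± 0.958 FPKM with antigen and 10.6 ± 0.551 FPKM with IgE (SD, n = 3 each) and a log2 change of 0.45 (adjusted p = 3.02e-05). Noc3l and Rrs1, which act in early 60S assembly, rose by 0.20 and 0.23 (adjusted p = 0.00992 and 0.0100).

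**Figure D3:**
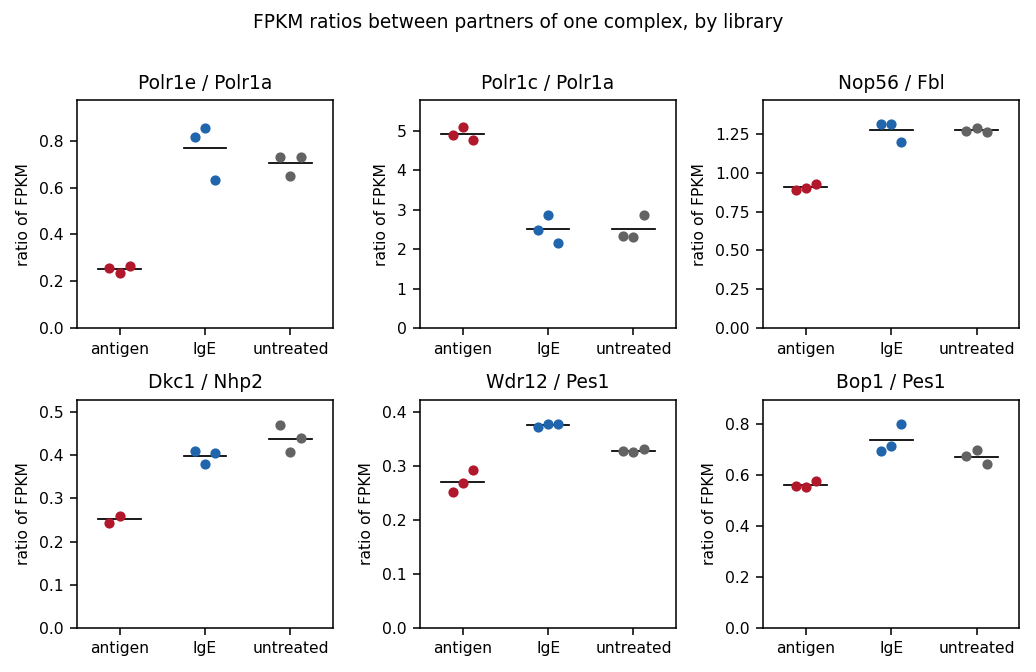
Ratio of the FPKM of partners in the same complex (vertical axes, from 0) in the antigen (red), IgE (blue) and untreated (grey) libraries, each point 1 library and the line the group mean. In these 6 pairs, picked after their values were seen, the antigen libraries stand apart from the other 6, as with Polr1e to Polr1a at 0.235 to 0.267 against 0.631 to 0.852 with IgE.

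The nucleolar proteins included the most abundant member. Of 7, 3 were called higher (Ddx21, Mybbp1a and Npm1) and 1 lower (Npm3) in the antigen step, and with IgE alone 5 were called higher and 0 lower, also at an unadjusted p under 0.05. The shares called among all genes tested were 37.6% higher and 36.2% lower in the antigen step, and 15.9% and 14.2% with IgE alone. Npm1, the histone chaperone nucleophosmin, had 470, 428 and 421 FPKM with antigen, 411.5, 384 and 342 FPKM with IgE and 363, 360 and 362 FPKM untreated. The antigen libraries lay above the other 6 and the IgE libraries overlapped the untreated ones. The log2 change against IgE was 0.22 (adjusted p = 0.0157), but it was −0.16 under quantile normalization (adjusted p = 0.0276). It was not called without antigen replicate 1 (adjusted p = 0.0686) or under median centring (adjusted p = 0.0551). Against untreated cells it was 0.28 (adjusted p = 0.00379) and −0.155 under quantile normalization (adjusted p = 0.0323), so the direction of Npm1 depends on the scaling. Npm1 also has 7 pseudogene copies. Npm3, a relative of Npm1, averaged 16.8 ± 1.23 FPKM with antigen and 20.1 ± 0.628 FPKM with IgE (SD, n = 3 each), a log2 change of −0.25 (adjusted p = 0.0031).

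Ncl, nucleolin, which binds ribosomal RNA and ribosomal DNA chromatin, had 35.35, 33.6 and 35.4 FPKM with antigen, 41.0, 34.6 and 38.5 FPKM with IgE and 42.6, 39.7 and 36.7 FPKM untreated. Antigen and IgE libraries overlapped, with an interval from −0.27 to 0.03. Antigen libraries lay below untreated ones by a log2 change of −0.18 (adjusted p = 0.0319), and that call was lost on leaving out any antigen library or untreated replicate 1 or 2, with adjusted p from 0.0519 to 0.126. Ddx21, an RNA helicase, averaged 56.9 ± 0.213 FPKM with antigen and 41.2 ± 0.992 FPKM with IgE (SD, n = 3 each), a log2 change of 0.46 (adjusted p = 9.98e-06). Mybbp1a averaged 28.4 ± 0.688 FPKM with antigen and 22.2 ± 1.98 FPKM with IgE (SD, n = 3 each), a log2 change of 0.34 (adjusted p = 0.000285). Nolc1, a snoRNP chaperone, and Gnl3, the nucleolar GTPase nucleostemin, were called with IgE over untreated (0.22 and 0.18, adjusted p = 0.00616 and 0.0446) and not in the antigen step. The call of Gnl3 was lost in 13 of the 21 alternatives.

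**Figure D4:**
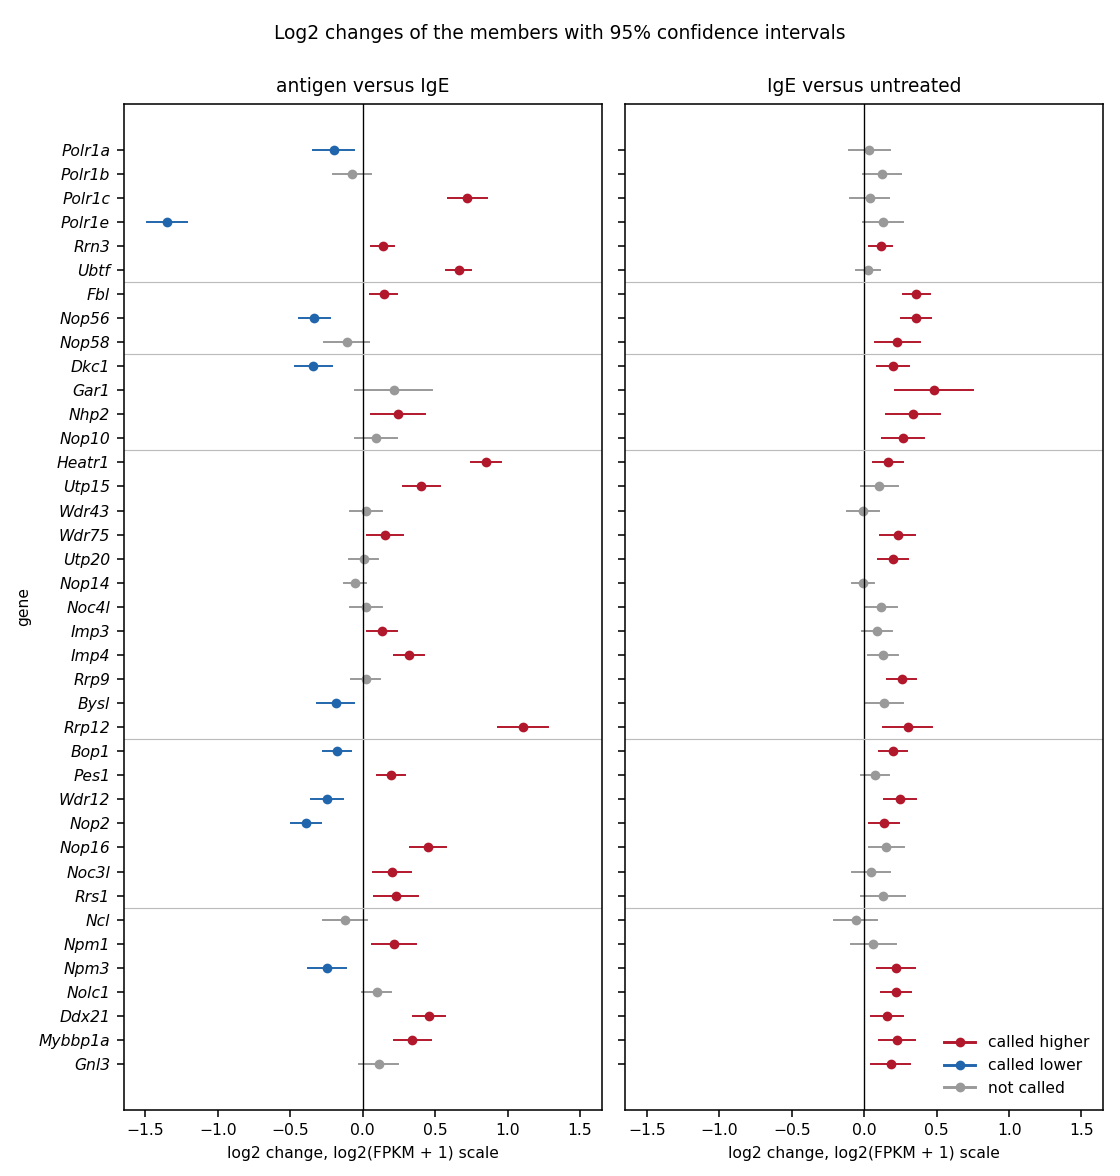
Log2 change on the log2(FPKM + 1) scale (horizontal axes) of the 39 members, by role from top to bottom, for antigen against IgE (left) and IgE against untreated (right), with 95% confidence intervals as bars. Red points were called higher, blue lower and grey not called; on the left the points spread from −1.35 to 1.11, and on the right they run from −0.06 to 0.48.

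The rest of the pathway, taken from lists of genes by function, also held genes called in each direction. In the antigen step, 9 of 14 other RNA polymerase I subunits and factors tested were called higher and 2 lower, with a median log2 change of 0.24. Of all genes tested, 37.6% were called higher and 36.2% lower in that step. Polr2e, a subunit common to the 3 polymerases, rose by 0.28 (adjusted p = 2.51e-05), but was not called under quantile normalization (adjusted p = 0.796). Taf1c, of the promoter selectivity factor, rose by 0.37 (adjusted p = 0.000232), while Znrd1 and Polr2h fell by 0.43 and 0.30 on the log2 scale (adjusted p = 3.61e-05 and 0.00169). Cd3eap, the partner of Polr1e, was singled out after its value was seen: it averaged 10.6 ± 0.345 FPKM with antigen, 8.47 ± 0.491 FPKM with IgE and 7.92 ± 0.689 FPKM untreated (SD, n = 3 each), and rose over IgE by 0.29 (adjusted p = 0.00189) where Polr1e fell.

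The counts here stand beside 37.6% called higher and 36.2% called lower among all genes tested. Of the other small subunit factors, 21 of 46 were called higher and 5 lower in the antigen step (median log2 change 0.13). The atypical kinase Riok3 rose by 0.87 and Tsr1, a late 40S factor, by 0.62 (adjusted p = 2.3e-07 and 3.25e-06), while the kinase Riok1 and the GTPase Bms1 fell by 0.48 and 0.25 on the log2 scale (adjusted p = 3.42e-05 and 0.000386). Of the other 60S factors, 30 of 50 were called higher and 7 lower (median 0.20). Eif6, which keeps the 60S subunit from joining the 40S subunit, rose by 0.98 and Sbds, which helps remove it, by 0.86 (adjusted p = 2.17e-08 and 5.3e-08), while Wdr55 and Ddx55 fell by 0.29 and 0.21 on the log2 scale (adjusted p = 0.00165 and 0.00481). Eif6 averaged 82.4 ± 3.59 FPKM with antigen and 41.3 ± 2.35 FPKM with IgE, and Sbds averaged 111 ± 2.51 FPKM with antigen and 60.4 ± 1.31 FPKM with IgE (SD, n = 3 each).

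The calls in the further lists, with antigen relative to IgE, stand beside the same 37.6% called higher and 36.2% called lower among all genes tested. Among snoRNP assembly factors 2 of 10 were called higher and 5 lower (median −0.27), with Shq1, the Dkc1 chaperone, up by 0.39 (adjusted p = 0.000619) and Rpap3 down by 0.37 on the log2 scale (adjusted p = 6.59e-05). Of the exosome and RNase MRP list 4 of 23 were called higher and 10 lower (median −0.11). Rpp40, a protein subunit of RNase P and RNase MRP, averaged 0.929 ± 0.048 FPKM with antigen and 2.49 ± 0.032 FPKM with IgE (SD, n = 3 each), the largest fall of that list (log2 change −0.86, adjusted p = 2.17e-07), and Pop1 rose by 0.48 (adjusted p = 4.75e-05). Rpp40 was under 1 FPKM in each antigen library and passed the filter on low values through the IgE and untreated libraries. Of RNA polymerase III genes, whose products make 5S ribosomal RNA and transfer RNA, 5 of 22 were called higher and 8 lower (median −0.06), led by Bdp1 (0.60, adjusted p = 3.44e-07) and Polr3k (−0.51, adjusted p = 1.08e-05). Of snoRNA host transcripts, 4 of 10 tested were called higher and 0 lower, also at an unadjusted p under 0.05, and Gas5 rose by 0.46 (adjusted p = 8.08e-06) and Snhg1 by 0.29 (adjusted p = 0.000265). With IgE alone relative to untreated cells, 2 of 14 other RNA polymerase I genes and 3 of 10 snoRNP assembly factors were called higher. So were 7 of 23 exosome and RNase MRP genes and 3 of 10 snoRNA hosts, with 0 of each list lower. At an unadjusted p under 0.05 the counts were 3, 3, 10 and 5 higher, in that order, and 0 of each lower. Of all genes tested, 21.2% were higher and 20.7% lower at that threshold. Of small subunit factors 8 of 46 were called higher and 2 lower, of 60S factors 7 of 50 and 2, and of RNA polymerase III genes 2 of 22 and 2, beside 15.9% higher and 14.2% lower of all genes tested.

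**Figure D5:**
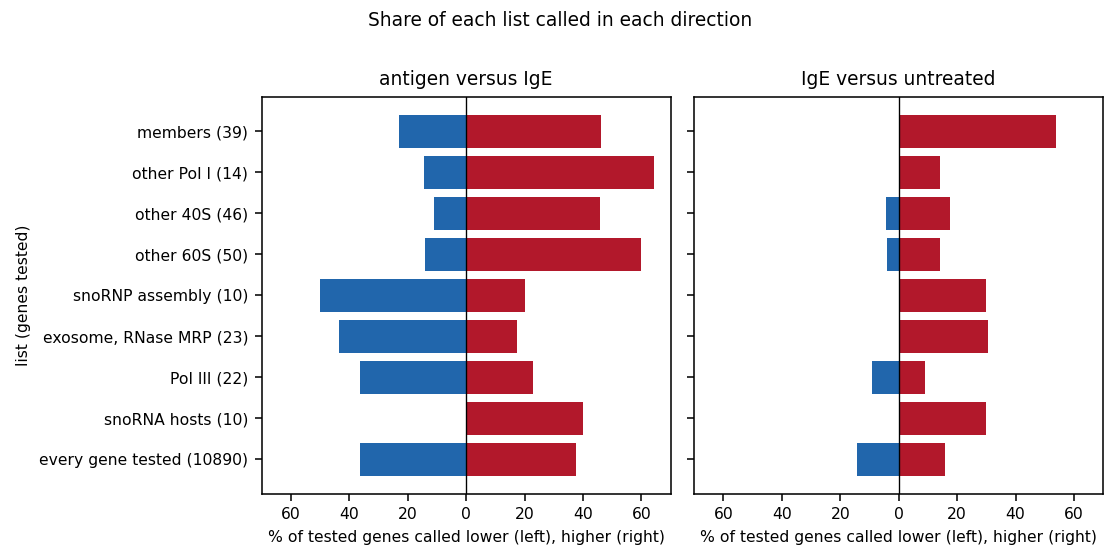
Percent of the tested genes of each list called lower (blue, to the left) or higher (red, to the right) for antigen against IgE (left panel) and IgE against untreated (right panel), with the number tested in brackets and every gene tested in the bottom row. The members' bars show 18 higher and 9 lower of 39 on the left, and 21 higher and 0 lower on the right.

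These are bulk libraries, in which a lower share of a type of cell and less RNA per cell cannot be told apart. Replicates were close for most members, with a median coefficient of variation of 2.86% in antigen, 4.70% in IgE and 4.33% in untreated libraries. In GENCODE M21, 16 members share exon bases with a gene on the opposite strand, and for 3 of them (Bysl, Npm3 and Nop14) the share is over 5%. Pseudogene copies exist for 9 members, so the values of Fbl, Nop56, Nhp2, Imp3, Pes1, Wdr12, Rrs1, Npm1 and Npm3 are uncertain as far as shared reads could be split between copies.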

How the data were processed

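RNA sequencing of 9 mast cell libraries (3 antigen, 3 IgE and 3 untreated) was read from 1 table of FPKM values that the authors deposited. Per the submitters' processing notes, alignment used TopHat2 2.0.12 with Bowtie 0.12.7 and the mm9 genome. Which program computed FPKM, on which annotation and with what strand setting is not given in the sources used here.

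A gene was tested if 3 or more libraries had at least 1 FPKM, which left 10890. The test was limma 3.58.1 (R 4.3.3) on log2(FPKM + 1), with a mean per group, an intensity trend, all 9 libraries in 1 fit and no block. Tests were two-sided with Benjamini-Hochberg adjustment over all genes tested, and an adjusted p under 0.05 was a call. The method was also run on simulated data with independent noise and fewer changed genes than were called here. That run cannot give the error rate in these data. Log2 changes are on this scale and understate the change of low genes, whereas folds are ratios of mean FPKM. X and Y values of antigen replicate 3 (569 genes, by RefSeq GRCm38.p6, where 139 symbols had no match) were set to missing. Library depth came from the steps of low values in 2966 single-transcript genes of GENCODE M21. Of the 321 to 384 low values used per library, 54.1% to 62.8% lay within 0.1 of a whole read, where 20% would by chance. The depth was chosen so that these same values fell near whole reads, so that share is no independent check of it. Overlaps and copies (at least 90% identity over at least 300 bases) came from the same annotation. Coordinates belong to GRCm38.p6 and not to mm9.

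The members and lists were chosen with earlier results of these data known. Values in every library are given for the 4 largest changes in each direction and comparison among called members whose groups do not overlap, and for Polr1a, Polr1b, Rrn3, Ubtf, Fbl, Nop56, Nop58, Dkc1, Ncl and Npm1. Other lists are given as counts, with up to 2 genes per direction by smallest adjusted p. Alternatives covered pseudocount, filter, scaling, trend, libraries in the fit, a replicate block, the X and Y values and each library left out, and 1 without antigen replicate 3 and IgE replicate 3 together was added after seeing the data.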

Additional observations from a re-analysis of the deposited data

How the results depend on the processing

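Of the calls on single members, 16 of 27 for antigen against IgE, 9 of 21 for IgE against untreated and 23 of 30 for antigen against untreated were kept in all 21 alternatives. Under quantile normalization 11 members were called higher and 14 lower for antigen against IgE, with a median log2 change of 0.0023. The median for antigen against untreated was 0.15, and median centring gave 0.22 there, beside −0.028 for every gene tested. With quantile normalization the medians of every gene tested were −0.077 against IgE and −0.062 against untreated. It called 3331 of the 10890 genes higher and 4656 lower for antigen against IgE. The same normalization reversed Fbl (−0.0078) and Imp3 (−0.019) for antigen against IgE, and Npm1 for antigen against IgE (−0.16) and against untreated (−0.155). It also put 41.7% of all calls for antigen against IgE on the higher side, against 50.95% with the reported scaling. Without the filter on low values 3 members were called lower for antigen against untreated. Leaving out single libraries gave 10 to 25 members called higher for IgE against untreated and 2 to 5 called lower for antigen against untreated. For antigen against untreated the count was 2 without untreated replicate 1 or 2 or antigen replicate 1 or 2, and 3 without antigen replicate 3. The cause of these shifts was not tested.

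Groups share replicate numbers in the labels. Correlations of the deviations from group means ran from −0.331 to 0.351 for libraries of the same number and from −0.348 to 0.242 for different numbers. The highest, 0.351, was between untreated replicate 2 and IgE replicate 2. As same-number libraries did not deviate together throughout, the numbers were not taken to pair them. With a replicate block, 18 members were called higher and 9 lower for antigen against IgE, 19 and 0 for IgE against untreated, and 25 and 4 for antigen against untreated. In the same order, that fit called 4025 of the 10890 genes tested higher and 3903 lower, 1593 and 1362, and 4159 and 3820. The block ended the calls of Polr1a for antigen against untreated (adjusted p = 0.0617) and of Rrn3 (0.0590) and Nop2 (0.0798) for IgE against untreated. Depth limits the low members most, above all Polr1e with antigen.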
